A study of Mus musculus with 12 samples.

Results

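The SMAD proteins and the SKI corepressors that restrain them were followed as mRNA in mouse bone marrow mesenchymal stem cells (MSCs). The group was chosen by name and held 10 genes (Smad1, Smad2, Smad3, Smad4, Smad5, Smad6, Smad7, Smad9, Ski and Skil) of the 55401 genes in the expression table. Of these 10 genes, 9 were tested, since they passed the filter of 1 FPKM or more in 3 or more of the 12 libraries, as 12016 genes did. FPKM is a fragment count scaled to transcript length and library depth, so it can be compared between genes. Smad9 did not pass. The question was how the mRNAs of the SMADs that carry the signal stood against those of the SMADs and corepressors that hold it back.

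Ligands of the TGF-β family bind paired receptor kinases, which phosphorylate receptor-activated SMADs. Smad2 and Smad3 carry signals of TGF-β and activin, Smad1, Smad5 and Smad9 carry those of bone morphogenetic proteins (BMPs), and both kinds pair with Smad4 to act on genes in the nucleus. Smad6 and Smad7 are inhibitory SMADs, and Ski and Skil (also called SnoN) bind SMADs on DNA and recruit repressors. In mesenchymal cells the TGF-β arm is best known for driving the myofibroblast program of contractile proteins and collagen.

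All groups were bone marrow MSCs of the C57BL/6 strain, bought as a cell product and cultured, with 3 libraries per group. The untreated group received neither TGF-β1 nor supernatant. The TGF-β1 group was given TGF-β1 at 5 ng/mL for a day. The other groups, TGF-β1/M-MDSC supernatant and its G-MDSC counterpart, were given the same TGF-β1 with medium conditioned by sorted bone marrow myeloid-derived suppressor cells of the monocytic (M-MDSC) or granulocytic (G-MDSC) kind. No group had supernatant without TGF-β1, so a supernatant was only seen on top of TGF-β1. The labels do not say whether the libraries of a group came from separate cultures, so p-values measure the spread between these libraries, which may be technical. In bulk RNA, fewer cells of a kind and less RNA per cell cannot be told apart.

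The libraries held 73977669 to 84565450 counts, and the lowest count of a tested member was 483 (Smad6). The variance between replicate libraries was 59.9 to 82.5 times that of read sampling alone. Of 10 MSC markers, 8 to 9 had a group mean of at least 1 FPKM. Itgb1 (CD29) stood at 254 to 385 FPKM and Cd44 at 39.5 to 57.5 FPKM in the group means, whereas Kit (CD117) had 0 counts in all libraries without supernatant and Pecam1 (CD31) had group means of at most 0.173 FPKM. Ly6a (Sca-1) fell from 245 FPKM in untreated MSCs to 16.2 FPKM with TGF-β1 and stood at 92.5 and 66.9 FPKM with M-MDSC and G-MDSC supernatant. Markers of other cell types were followed in the same libraries. Kap, a kidney tubule transcript, had 0 counts without supernatant and means of 30.5 and 45.2 FPKM with M-MDSC and G-MDSC supernatant, where the M-MDSC libraries ran from 537 to 4246 counts. Aqp1, a water channel on the same list, went the other way, with means of 29.9 FPKM untreated, 4.22 FPKM with TGF-β1 and 3.41 and 3.26 FPKM with the 2 supernatants. The myeloid list summed to 28.9 to 30.8 FPKM in untreated MSCs, 15.7 to 17.2 FPKM with TGF-β1, 23.0 to 28.9 FPKM with M-MDSC supernatant and 29.4 to 31.0 FPKM with G-MDSC supernatant, with Mpo and Elane at 0 counts in every library and Ptprc at no more than 26 counts. Most of that sum was Cd14, with means of 23.0, 13.8, 20.4 and 22.6 FPKM in the same order of groups. Lyz2, a lysozyme of myeloid cells, had means of 0.115, 0.0572, 1.54 and 1.87 FPKM, and S100a9 had 0 counts without supernatant, 12 to 43 with that of M-MDSCs and 0 to 160 with that of G-MDSCs. Other genes of that list stayed far below their untreated level with supernatant. In the same order of groups, Ly6g had means of 1.83, 0.0681, 0.0619 and 0.125 FPKM. Those of Ly6c2 were 1.71, 0.0450, 0.148 and 0.211 FPKM. The part of these transcripts in the results that follow was not tested.

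Promoter sequence is shown for 3 members whose mRNA moved far with TGF-β1: Smad3 and Smad6, which fell and are neighbours on chromosome 9, and Smad5, which rose. The windows are the 250 bases upstream of the gene start in RefSeq for GRCm38.p6, written 5′ to 3′ on the strand of the gene: chr9:63757995-63758244 (minus strand) for Smad3, chr9:64022060-64022309 (minus strand) for Smad6 and chr13:56702760-56703009 (plus strand) for Smad5. Capitals mark GTCT or its complement AGAC, the core that SMAD3 and SMAD4 are known to contact.
Smad3: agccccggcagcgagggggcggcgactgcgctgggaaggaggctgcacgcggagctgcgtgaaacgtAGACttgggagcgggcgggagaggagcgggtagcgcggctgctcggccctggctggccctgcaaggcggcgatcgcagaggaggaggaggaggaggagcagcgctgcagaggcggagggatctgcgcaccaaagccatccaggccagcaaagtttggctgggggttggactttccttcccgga
Smad6: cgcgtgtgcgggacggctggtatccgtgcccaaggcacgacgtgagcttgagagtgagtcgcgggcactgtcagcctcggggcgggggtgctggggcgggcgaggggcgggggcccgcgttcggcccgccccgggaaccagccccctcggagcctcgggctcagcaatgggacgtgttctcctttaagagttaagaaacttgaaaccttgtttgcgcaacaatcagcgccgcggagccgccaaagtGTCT
Smad5: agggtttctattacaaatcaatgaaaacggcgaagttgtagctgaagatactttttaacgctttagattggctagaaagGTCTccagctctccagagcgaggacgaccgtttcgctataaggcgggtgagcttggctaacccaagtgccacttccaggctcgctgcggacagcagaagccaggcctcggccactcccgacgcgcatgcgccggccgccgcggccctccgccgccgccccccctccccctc
Each window held that core once, 183, 4 and 171 bases before the start of Smad3, Smad6 and Smad5. This 4-letter search was added after longer motifs had found nothing in these windows, and 82.9% of 32851 promoters of this length held the core on either strand, so that it does not set the members apart. The palindrome GTCTAGAC, the CAGA box (CAGACA) and the GC-rich motif GGCGCC, searched on both strands, were in none of the 3 windows and were held by 0.167%, 17.1% and 9.59% of all promoters. CAGACA contains the core. The GC content was 69.2%, 66.8% and 60.0% for Smad3, Smad6 and Smad5 against a median of 52.4% over all promoters. Of the 10 members, 5 had a promoter entry that starts where the gene starts in the expression table. The windows of the other two, Smad9 and Ski, each held GGCGCC and neither the palindrome nor the CAGA box, and of these windows that of Smad9 held the core.

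In untreated MSCs Smad3, a carrier of TGF-β signals, had the highest mean of the members at 28.9 ± 1.41 FPKM (SD, n = 3), 1.66 times that of Smad4, and their libraries did not overlap. Smad4, at 17.4 ± 0.689 FPKM, overlapped with Ski at 14.8 ± 6.20 FPKM. Smad1, Smad7, Smad5, Skil and Smad2 followed with means from 6.36 down to 4.22 FPKM, and apart from Smad1 and Smad7 the neighbours in this order overlapped. Smad6 came next at 3.76 ± 0.0563 FPKM, below every Smad2 library, and Smad9 was last at 0.130 ± 0.0654 FPKM. With TGF-β1 the order was Ski (21.6 FPKM), Smad4, Skil and Smad3, with Smad3 at 13.9 ± 0.0576 FPKM behind the others. These 4 genes overlapped from each to the next. Smad5, Smad7, Smad1 and Smad2 made up the middle, each overlapping the next, and Smad6 and Smad9 stayed last.

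**Figure D1:**
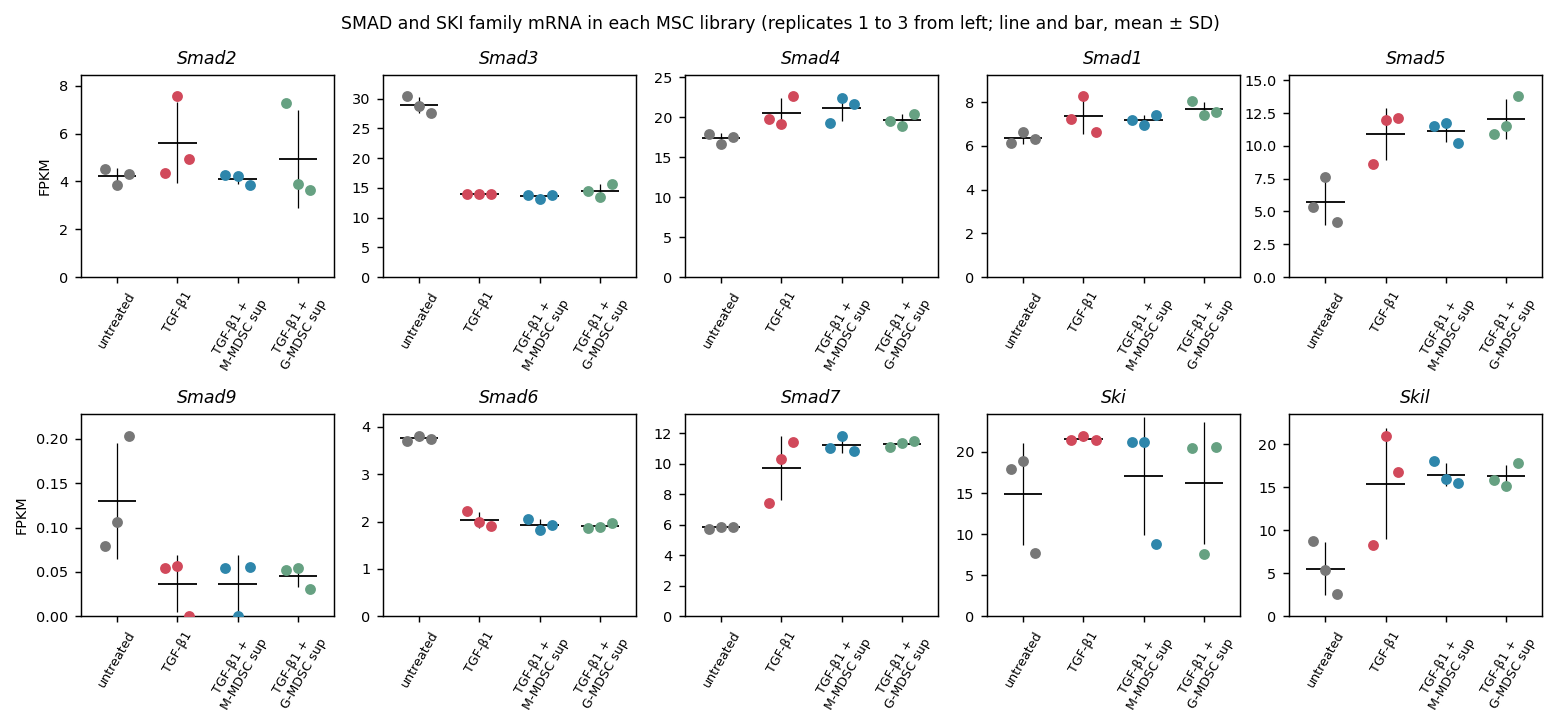
FPKM of the 10 members (y axes, each on its own scale) in the 12 libraries, with replicates 1 to 3 from left to right within a group, a line at the group mean and a bar for ± 1 SD. Smad3 and Smad6 were lower, and Smad5 and Smad7 higher, in every library with TGF-β1 than in any untreated library, whereas Ski and Smad2 had single libraries far from the others of their group.

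TGF-β1 moved most of the tested members, and it did not move the signal carriers one way and the inhibitors the other. Smad3 and Smad6 fell, and Skil, Smad5, Smad7, Smad4 and Smad1 rose, while Smad2 and Ski did not pass the test. These 7 of 9 tested members were called at a Benjamini-Hochberg adjusted p under 0.05 in edgeR's quasi-likelihood test, where 34.0% of all 12016 tested genes were called. The 5 that rose stand against 16.1% of all genes called higher, and the 2 that fell against 17.9% called lower. That split of all genes, 1929 higher and 2153 lower, was 1477 higher and 2725 lower with limma on log2(FPKM + 1). The median log2 fold change over the 9 members was 0.47, against 0.00048 over all tested genes, and the median size was 0.80 against 0.20. Of the 9, 7 also had groups that did not overlap in FPKM (Ski in place of Skil), as did 46.7% of all genes.

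Smad3, one of the pair of carriers for TGF-β itself, had the smallest p of the group. It stood at 30.4, 28.7 and 27.6 FPKM in the untreated libraries and at 14.0, 13.9 and 13.9 FPKM with TGF-β1. With M-MDSC supernatant it stood at 13.8, 13.2 and 13.8 FPKM, and with G-MDSC supernatant at 14.5, 13.4 and 15.7 FPKM. The untreated libraries were all far above the 9 others, which lay close together. With TGF-β1 the log2 fold change was -0.99 (SE 0.06, edgeR adjusted p = 3.12e-07), a 1.99-fold lower level.

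Smad2, its partner, behaved otherwise. Its libraries read 4.50, 3.86 and 4.31 FPKM untreated and 4.36, 7.56 and 4.95 FPKM with TGF-β1. With M-MDSC supernatant they read 4.25, 4.24 and 3.83 FPKM, and with G-MDSC supernatant 7.27, 3.91 and 3.62 FPKM. Single libraries, the second with TGF-β1 and the first with G-MDSC supernatant, were high, and the untreated and TGF-β1 groups overlapped. Its log2 fold change with TGF-β1 was 0.47 (95% interval -0.11 to 1.05, adjusted p = 0.203), and without the second TGF-β1 library it was 0.20 (adjusted p = 0.622). The ratio of Smad3 to Smad2 FPKM was 6.86 ± 0.519 in untreated MSCs and 2.62 ± 0.708 with TGF-β1.

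Of the carriers of the BMP arm, Smad5 and Smad1 were tested. Smad5 read 5.35, 7.60 and 4.18 FPKM untreated and 8.63, 12 and 12.1 FPKM with TGF-β1, then 11.5, 11.8 and 10.2 FPKM with M-MDSC supernatant and 10.9, 11.5 and 13.8 FPKM with G-MDSC supernatant. The untreated libraries differed by up to 1.82 times among themselves, and all were below the 9 others. With TGF-β1, Smad5 had a log2 fold change of 0.99 (SE 0.21, adjusted p = 0.00335), a 1.99-fold higher level. The 3 small annotated genes inside Smad5 on its strand had at most 0.784 FPKM in any library.

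Smad1, the other tested carrier for BMPs, had a smaller fold change. It read 6.12, 6.63 and 6.33 FPKM untreated and 7.24, 8.27 and 6.64 FPKM with TGF-β1. The lowest TGF-β1 library lay just above the highest untreated one, and the log2 fold change was 0.27 (SE 0.08, adjusted p = 0.0174). That call ended without the first untreated library (adjusted p = 0.0719) and without the second TGF-β1 library (adjusted p = 0.0558), and also with limma or with only the untreated and TGF-β1 groups fitted. Smad9 was near the floor of detection, with 37, 54 and 99 counts in the untreated libraries and 0 to 28 counts in the 9 others. It was listed at 0 in the third TGF-β1 and the second M-MDSC supernatant library, and the FPKM filter kept it out of the main test. The ratio of Smad2 and Smad3 to Smad1, Smad5 and Smad9, in summed FPKM, was 2.76 ± 0.421 untreated and 1.07 ± 0.0739 with TGF-β1.

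Smad4, the shared partner of both arms, rose by a small amount. It read 18.0, 16.6 and 17.5 FPKM untreated and 19.8, 19.2 and 22.6 FPKM with TGF-β1, without overlap, and its log2 fold change was 0.30 (SE 0.07, adjusted p = 0.00909). An annotated gene on the opposite strand overlaps Smad4, but it had at most 0.142 FPKM in any library.

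The inhibitory SMADs moved in opposite directions. Smad7, which blocks the receptors of both arms, read 5.75, 5.86 and 5.88 FPKM untreated and 7.42, 10.3 and 11.4 FPKM with TGF-β1. With M-MDSC supernatant it read 11.0, 11.9 and 10.9 FPKM, and with G-MDSC supernatant 11.1, 11.4 and 11.5 FPKM. Every library with TGF-β1 was above the untreated ones, and the first TGF-β1 library was the lowest of the 9. The log2 fold change was 0.80 (SE 0.12, adjusted p = 0.000511).

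Smad6, which acts mainly on the BMP arm, read 3.71, 3.82 and 3.75 FPKM untreated and 2.22, 1.99 and 1.90 FPKM with TGF-β1. It read 2.05, 1.82 and 1.94 FPKM with M-MDSC supernatant and 1.87, 1.89 and 1.97 FPKM with G-MDSC supernatant. The untreated libraries lay close together and above all 9 others. Its log2 fold change with TGF-β1 was -0.83 (SE 0.08, adjusted p = 1.33e-05). The ratio of Smad7 to Smad6 FPKM was 1.55 ± 0.0174 in untreated MSCs and 4.85 ± 1.37 with TGF-β1.

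Skil rose most of all members. It read 8.71, 5.38 and 2.54 FPKM untreated and 8.33, 21.0 and 16.8 FPKM with TGF-β1. With M-MDSC supernatant it read 18.0, 15.9 and 15.5 FPKM, and with G-MDSC supernatant 15.8, 15.1 and 17.8 FPKM. The first TGF-β1 library fell below the first untreated library, so these groups overlapped, whereas both supernatant groups were above every untreated library. The log2 fold change of Skil with TGF-β1 was 1.53 (SE 0.41, adjusted p = 0.0136), a 2.88-fold higher level. Without the second TGF-β1 library it was 1.23 (adjusted p = 0.0541), and without the third untreated library 1.18 (adjusted p = 0.0261). With only the untreated and TGF-β1 groups fitted the adjusted p was 0.0664.

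Ski, the other corepressor, read 17.9, 18.9 and 7.69 FPKM untreated and 21.4, 22.0 and 21.4 FPKM with TGF-β1. It read 21.2, 21.2 and 8.80 FPKM with M-MDSC supernatant and 20.5, 7.63 and 20.6 FPKM with G-MDSC supernatant. In each group but TGF-β1, 1 library was far below the others, and the untreated and TGF-β1 groups did not overlap. A log2 fold change of 0.60 with TGF-β1 did not pass the test (95% interval -0.40 to 1.60, adjusted p = 0.352), and without the third untreated library it was 0.29 (adjusted p = 0.688). The largest ratio between libraries of 1 group was 3.43 for Skil, 2.69 for Ski and 2.01 for Smad2, values reached by 5.07%, 7.22% and 12.5% of all tested genes.

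**Figure D2:**
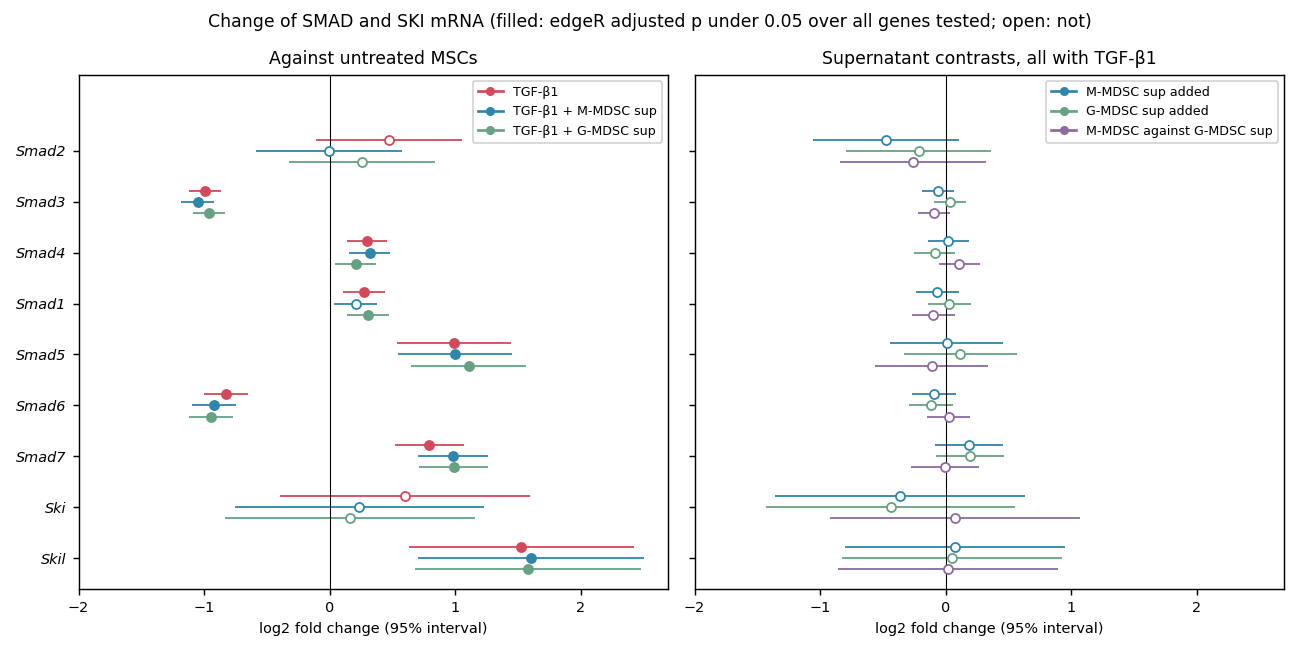
Log2 fold change (x axis) with its 95% interval for the 9 tested members (y axis), against untreated MSCs on the left and between groups that all had TGF-β1 on the right. Points are filled where edgeR's adjusted p was under 0.05, and on the right every point is open.

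Against untreated MSCs, the groups with supernatant gave values near those of TGF-β1 alone, and all of these comparisons share the untreated libraries. With M-MDSC supernatant, 4 members rose and 2 fell of the 9 tested, where 35.2% of all genes were called, 16.4% higher and 18.9% lower. Smad3 stood 2.07-fold lower (log2 fold change -1.05, SE 0.06) and Smad6 1.89-fold lower (-0.92, SE 0.08), while Skil stood 3.04-fold higher (1.60, SE 0.41). Smad1 did not pass (log2 fold change 0.21, 95% interval 0.04 to 0.38, edgeR adjusted p = 0.0569). With G-MDSC supernatant, 5 members rose and 2 fell, where 34.8% of all genes were called, 16.4% higher and 18.4% lower. Smad7 (log2 fold change 0.99, SE 0.12) and Smad5 (1.11, SE 0.21) were both higher. Smad4 was called there at an edgeR adjusted p of 0.0477, but leaving out any 1 of the 6 libraries ended the call, with adjusted p from 0.0577 to 0.137. In either supernatant group, 7 of the 9 members had FPKM that did not overlap with untreated MSCs, as did 47.4% of all genes with M-MDSC and 46.0% with G-MDSC supernatant. By the fold rule of the study, a fold above 2 or below 0.5 with an unadjusted p under 0.05, Skil passed with TGF-β1, Skil and Smad3 with M-MDSC supernatant, and Skil and Smad5 with G-MDSC supernatant. The shares of all genes passing that rule were 6.74%, 6.98% and 6.80%.

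Adding supernatant to TGF-β1 gave no call among the members, at a low share of calls over all genes. For M-MDSC supernatant against TGF-β1, 0 of 9 members were called in edgeR (4.78% of all genes were), and 0 had an unadjusted p under 0.05 (16.7% of all genes had). For G-MDSC supernatant against TGF-β1 both counts were also 0 (5.56% and 17.2% of all genes), and so were those between the supernatants (0.125% and 6.33% of all genes). DESeq2 and limma called 0 members in these 3 comparisons as well. These comparisons share the TGF-β1 libraries or the supernatant libraries.

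The intervals show what size of change the data leave room for. With M-MDSC supernatant, Smad3 differed from TGF-β1 alone by a log2 fold change of -0.06 (95% interval -0.19 to 0.07) and Smad6 by -0.09 (-0.27 to 0.08). Smad4 differed by 0.02 (-0.14 to 0.18) and Smad1 by -0.07 (-0.23 to 0.10). Smad7 differed by 0.19 (-0.09 to 0.46) and Smad5 by 0.01 (-0.44 to 0.46). The intervals were widest for Smad2 (-0.48, from -1.06 to 0.11), Ski (-0.36, from -1.36 to 0.63) and Skil (0.08, from -0.80 to 0.95), the genes with outlying libraries. Without the first TGF-β1 library the value for Smad7 was 0.02 (adjusted p = 0.918), and 0.03 (0.898) with G-MDSC supernatant. Without the second TGF-β1 library the value for Smad2 was -0.20 (adjusted p = 0.800), and without the third M-MDSC supernatant library that for Ski was -0.05 (adjusted p = 0.985).

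With G-MDSC supernatant against TGF-β1, Smad3 differed by 0.03 (95% interval -0.09 to 0.16), Smad6 by -0.12 (-0.29 to 0.06), Smad4 by -0.09 (-0.25 to 0.07) and Smad7 by 0.19 (-0.08 to 0.46). Smad1 differed by 0.03 (-0.14 to 0.20), Smad5 by 0.12 (-0.33 to 0.57), Smad2 by -0.22 (-0.80 to 0.37) and Skil by 0.05 (-0.82 to 0.93). For Smad2 the value was 0.06 (adjusted p = 0.955) without the second TGF-β1 library and -0.61 (adjusted p = 0.173) without the first G-MDSC supernatant library. Ski differed by -0.44 (-1.43 to 0.56), and by -0.10 (adjusted p = 0.954) without the second G-MDSC supernatant library. Between the supernatants the log2 fold changes ran from -0.26 (Smad2, 95% interval -0.84 to 0.32) to 0.11 (Smad4, -0.05 to 0.27), and the smallest adjusted p was 0.896 (Smad3). Groups did not overlap in FPKM for 3 members with M-MDSC supernatant (Smad2, Smad3 and Ski, all lower), where 24.0% of all genes did not. They did not overlap for 1 member with G-MDSC supernatant (Ski, lower), where 22.7% of all genes did not. Between the supernatants they did not overlap for 1 member (Smad1, lower with that of M-MDSCs). There 6.03% of all genes were lower without overlap, a share of 1 direction, whereas the shares before count both directions.

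Inhibitory and signal-carrying SMADs were also set against each other within a library. The summed FPKM of Smad6 and Smad7 divided by that of Smad1, Smad2, Smad3, Smad4, Smad5 and Smad9 was 0.147, 0.152 and 0.160 in the untreated libraries. It was 0.178, 0.202 and 0.221 with TGF-β1, 0.233, 0.234 and 0.224 with M-MDSC supernatant and 0.215, 0.240 and 0.221 with that of G-MDSCs. Untreated libraries were below all others, and the TGF-β1 libraries were below those with M-MDSC but not those with G-MDSC supernatant. That last separation was lost with Ski and Skil among the inhibitors, where the ratio was 0.560, 0.535 and 0.330 untreated, 0.729, 0.908 and 0.855 with TGF-β1, 0.932, 0.866 and 0.650 with M-MDSC supernatant and 0.818, 0.651 and 0.847 with that of G-MDSCs. No test was made of these ratios, since each is a score over chosen genes. The sum of the carriers was 62.7 ± 2.24 FPKM untreated and 58.4 ± 3.81 FPKM with TGF-β1, and that of the inhibitors 9.59 ± 0.116 and 11.8 ± 1.91 FPKM. The first TGF-β1 library, at 9.64 FPKM, lay within the untreated range of 9.46 to 9.68 FPKM for the inhibitors. Smad3 held 40.0 ± 1.04% of the summed SMAD FPKM in untreated MSCs and 20.0 ± 1.75% with TGF-β1, whereas Smad4 went from 24.1 ± 1.24% to 29.3 ± 2.73%, Smad5 from 7.87 ± 2.26% to 15.5 ± 1.66% and Smad7 from 8.07 ± 0.327% to 13.8 ± 1.96%. The share of Smad6, the other inhibitor, went from 5.20 ± 0.177% to 2.93 ± 0.485%. The ratio of Smad7 to Smad3 FPKM was 0.202 ± 0.0121 untreated, 0.698 ± 0.150 with TGF-β1, 0.828 ± 0.0611 with M-MDSC supernatant and 0.782 ± 0.0569 with that of G-MDSCs.

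**Figure D3:**
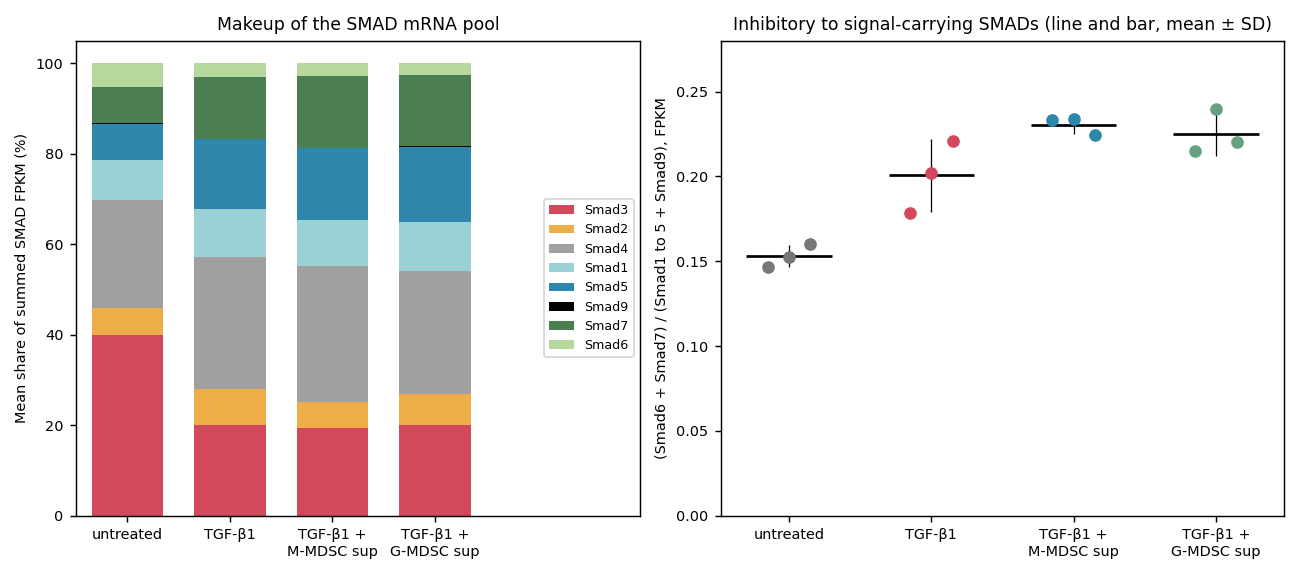
Left, mean share of each SMAD in the summed SMAD FPKM (y axis, percent) by group. Right, the ratio of Smad6 and Smad7 to Smad1 to Smad5 and Smad9 (y axis, FPKM over FPKM) in each library, with the group mean and ± 1 SD. The share of Smad3 was 40.0% untreated and 19.3% to 20.1% in the groups with TGF-β1, and the ratio had a mean of 0.153 untreated and means of 0.201 to 0.230 in the other groups.

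Across the 12 libraries several pairs of members were correlated, and the step between untreated and treated cells enters these values. Smad3 and Smad6 had a Pearson r of 0.977 in log2 depth-scaled counts (n = 12), but 0.31 for their deviations from the group means. Their genes lie on the same strand of chromosome 9 in GRCm38, Smad3 at 63646767 to 63757994 and Smad6 at 63953076 to 64022059, with 195081 bases and 3 annotated genes between them, 0 of which code for protein. In the same build Smad1 lies at chr8:79338395-79399518 (minus strand), Smad5 at chr13:56703010-56742377 (plus strand), Smad9 at chr3:54755582-54801257 (plus strand), Ski at chr4:155154075-155222535 (minus strand) and Skil at chr3:31095058-31122573 (plus strand). These positions are those of the expression table. For Ski and Skil, alone among the members, the start or end differed from that in the GENCODE gene models. Smad2, Smad4 and Smad7 lie on chromosome 18. Smad5 and Smad7 had an r of 0.914 over the libraries and 0.54 for the deviations. For Smad5 and Skil these were 0.909 and 0.65, and for Smad6 and Smad7 -0.969 and -0.78. For Smad5, Smad6, Smad7 and Skil the first TGF-β1 library lay furthest from its group mean, towards the untreated level. It enters these deviations, and its part in them was not tested. Of all tested genes, the nearest to Smad3 were Plat (tissue plasminogen activator, r = 0.994), Parm1 (0.994) and Adamts9 (a matrix protease, 0.992). The nearest to Smad6 were Fam234a (0.995), Ctnnal1 (0.991) and Ttyh3 (0.989), and those to Smad7 were Uchl1 (a deubiquitinase, 0.976), Tspan12 (0.973) and Ppp1r2 (0.972). Skil lay nearest to Rnf149 (0.974), Clasp1 (0.946) and Zfp703 (0.941). Ski had no gene as near, the highest being Cog2 (0.880), Gm2237 (0.878) and Clcf1 (0.874).

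The genes above and below the SMADs moved with TGF-β1 too, in lists that share a few genes such as Pmepa1 and Junb. Over the 7 lists 59 of 96 tested genes were called (61.5%), where 34.0% of all genes were, 16.1% higher and 17.9% lower. Of 9 tested ligands 6 rose and 2 fell. Tgfb1 rose from 3.61 to 13.7 FPKM (log2 fold change 1.98, SE 0.13) and Inhba, an activin subunit, from 28.9 to 88.8 FPKM (1.68, SE 0.09), while Bmp4 fell from 2.08 to 0.582 FPKM (-1.77, SE 0.24) and Inhbb from 1.40 to 0.311 FPKM (-2.11, SE 0.20). Of 10 tested receptors 4 rose and 3 fell. The signaling receptor Tgfbr2 fell from 36.8 to 17.6 FPKM and its coreceptor Tgfbr3 from 23.7 to 3.76 FPKM (-2.60, SE 0.13), whereas the BMP receptors Bmpr1b (1.08, SE 0.10) and Bmpr2 (0.55, SE 0.14) rose. All genes named here and below for TGF-β1 had an edgeR adjusted p of at most 0.0453.

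Further lists held genes that work on the SMAD proteins or with them in the nucleus. Of 15 tested genes of SMAD turnover 5 rose and 2 fell, with the ubiquitin ligases Wwp2 (log2 fold change 0.72, SE 0.05) and Smurf2 (0.38, SE 0.03) up and Wwp1 (-0.57, SE 0.10) and Stub1 (-0.28, SE 0.04) down. Of 16 tested anchors, phosphatases and transport genes 3 rose and 3 fell, a share of 37.5% near that of all genes. Pmepa1, which keeps Smad2 and Smad3 from the receptor, rose from 26.0 to 84.4 FPKM (1.76, SE 0.05) and the importin Ipo7 by 0.25 (SE 0.06), while the spectrin Sptbn1 fell from 36.4 to 18.6 FPKM (-0.91, SE 0.08) and the phosphatase Ctdspl from 3.92 to 2.67 FPKM (-0.50, SE 0.10). Of 24 tested nuclear partners 10 rose and 3 fell. Junb rose from 40.2 to 110 FPKM (1.52, SE 0.05) and Runx1 from 1.72 to 4.46 FPKM (1.44, SE 0.08), and Fos (-2.09, SE 0.19) and Jun (-0.41, SE 0.06) fell.

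Known targets of each arm were listed apart. Of 18 tested targets of the TGF-β arm 14 rose and 1 fell. Ccn2 (connective tissue growth factor) rose from 264 to 1468 FPKM (log2 fold change 2.53, SE 0.06) and Nox4, an oxidase that makes hydrogen peroxide, from 0.579 to 2.15 FPKM (1.95, SE 0.12), and the cell cycle inhibitor Cdkn2b fell by 0.36 (SE 0.12). Of 8 tested targets of the BMP arm 2 rose and 4 fell. Atoh8 fell from 5.26 to 0.765 FPKM (-2.72, SE 0.17) and Id3 from 46.3 to 12.4 FPKM (-1.84, SE 0.05). Grem1, a secreted BMP antagonist, was among those that rose (1.20, SE 0.05). The phosphorylation of SMAD proteins was not analysed here. Against untreated MSCs, the groups with M-MDSC and G-MDSC supernatant had 13 of these 18 TGF-β arm targets higher and 1 lower, and 2 of the 8 BMP arm targets higher and 5 lower, where 16.4% of all genes were higher in either comparison and 18.9% and 18.4% lower.

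**Figure D4:**
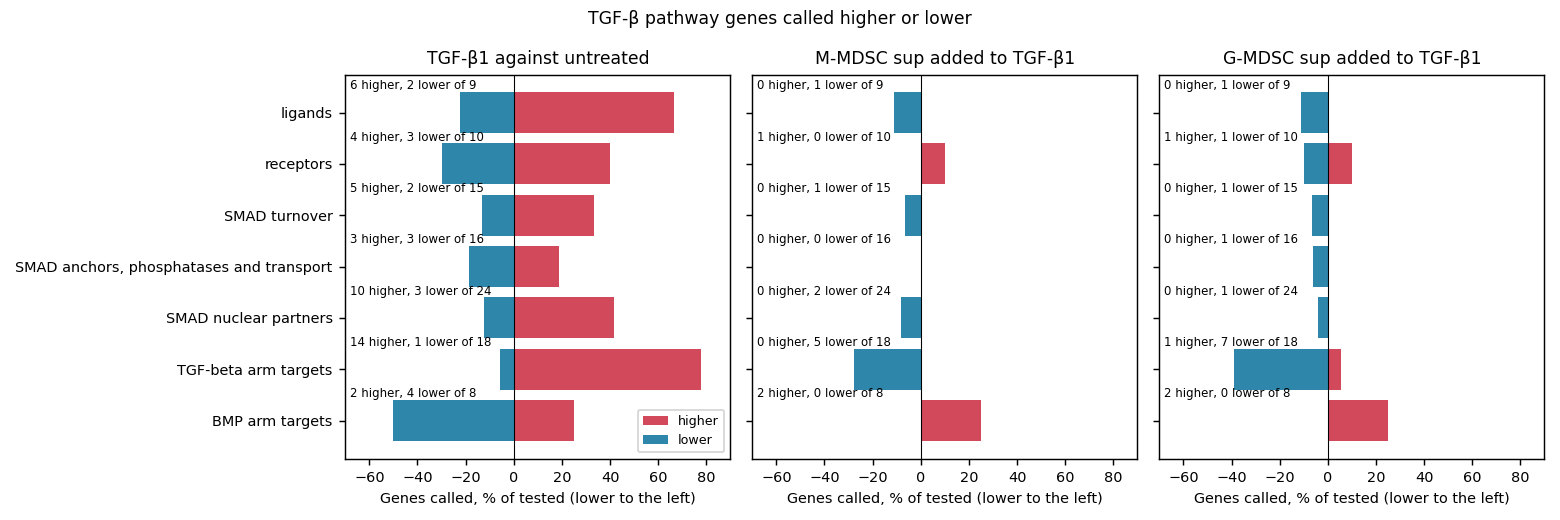
Share of tested genes called higher (red, to the right) or lower (blue, to the left) at an edgeR adjusted p under 0.05 in 7 lists of pathway genes (y axis), for TGF-β1 against untreated MSCs and for each supernatant added to TGF-β1. With TGF-β1, 14 of 18 TGF-β arm targets were higher, and with either supernatant most genes of each list were not called.

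With M-MDSC supernatant against TGF-β1, 12 of the 96 tested genes of the lists were called (12.5%), where 4.78% of all genes were, 2.83% higher and 1.95% lower. Of the targets of the TGF-β arm 5 of 18 were lower, with Tagln, an actin-binding protein of smooth muscle (log2 fold change -0.55, SE 0.08), and Acta2, the smooth muscle actin of myofibroblasts (-0.44, SE 0.05), falling most. Tgfbr3 rose (0.69, SE 0.12), Inhbb (-0.88, SE 0.20) and Smurf2 (-0.22, SE 0.03) fell, and so did the transcription factors Sp1 (-0.29, SE 0.05) and Foxo1 (-0.32, SE 0.07). The BMP targets Id2, an inhibitor of DNA binding (0.40, SE 0.08), and Grem1 (0.22, SE 0.05) rose. The genes named had an edgeR adjusted p of at most 0.0355. Limma on log2(FPKM + 1) called 10 of the 96 genes here and 0 ligands, so Inhbb lost the call. The mean of Inhbb was 1.40 FPKM untreated, 0.311 FPKM after TGF-β1 alone and 0.172 FPKM once M-MDSC supernatant was added. The group means compared here were thus below the 1 FPKM of the filter. Of the 16 anchors, phosphatases and transport genes 0 were called by edgeR, DESeq2 or limma, and 3 had an unadjusted p under 0.05 in edgeR. With G-MDSC supernatant 15 of the 96 genes were called (15.6%), where 5.56% of all genes were, 3.10% higher and 2.46% lower. There 7 of the 18 targets of the TGF-β arm fell and 1 rose, led by Tagln (-0.55, SE 0.08) and Acta2 (-0.51, SE 0.05), and the cell cycle inhibitor Cdkn1a rose (0.33, SE 0.07). Tgfbr2 (-0.16, SE 0.04), Pmepa1 (-0.22, SE 0.05), Smurf2 (-0.23, SE 0.03), Foxo1 (-0.32, SE 0.07) and Inhbb (-0.92, SE 0.20) fell, and Tgfbr3 (0.84, SE 0.12), Id2 (0.54, SE 0.08) and Grem1 (0.28, SE 0.05) rose. Their edgeR adjusted p was at most 0.0414. With limma on log2(FPKM + 1) 11 of the 96 genes were called. Among them were 0 ligands, 0 anchors, phosphatases and transport genes and 0 nuclear partners, so Inhbb, Pmepa1 and Foxo1 lost the call. Of the receptors limma called 1, where edgeR called 2. Between the supernatants edgeR, DESeq2 and limma called 0 of the 96 tested genes of these 7 lists, and 6 had an unadjusted p under 0.05 in edgeR.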

How the data were processed

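Poly(A) RNA of 12 libraries was sequenced by the authors after a dUTP strand-marking protocol, and whether the counting used strand is not given in the sources used here. The submitters' processing notes name cutadapt 1.9, HISAT2 2.0.4, StringTie 1.3.4d, edgeR and DESeq2, and the methods name fastp, gffcompare and GRCm38. The deposited raw counts per gene carry no named counting tool, and 44.3% of counts from 1 to 12 are 4, 8 or 12. The deposited FPKM were calculated by the authors, with 0.0001 written for a count of 0, treated here as 0. Groups came from the labels. Counts were scaled by TMM and fitted with edgeR 4.0.16 (R 4.3.3), the 4 groups in a single fit, two-sided quasi-likelihood tests, Benjamini-Hochberg over the 12016 genes at 1 FPKM or more in 3 or more libraries. SE is the log2 fold change over the root of F. Alternatives used median-ratio size factors, DESeq2 1.42.0, limma 3.58.1 on log2(FPKM + 1) or log2(FPKM + 0.1), other filters, counts divided by 4, fewer groups, a replicate block, the fold rule and each library left out. The script was checked on simulated data. Named genes are the 10 members, the 2 with the largest rise and fall among those called in each list, and the 3 nearest to Smad3, Smad6, Smad7, Ski and Skil. A gene that this rule picks is not reported here. The members and lists were chosen with earlier results of these data known. Promoters came from RefSeq, gene models from GENCODE. Intervals are 95% from the moderated t distribution of that fit.

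Of 15 myeloid markers 6 were tested, and with TGF-β1 1 rose and 3 fell. With M-MDSC or G-MDSC supernatant against TGF-β1 2 rose, Lyz2 and Cd14 in both. Of 9 kidney tubule markers 5 were tested, and 4 (Kap, Umod, Slc34a1 and Miox) rose with either supernatant against TGF-β1. Over all genes 2.83% (M-MDSC) and 3.10% (G-MDSC) were called higher. These 4 markers and Lyz2 passed the FPKM filter only through libraries with supernatant, where they were high. The filter thus favoured a rise, and these counts are no test of it. The fifth, Aqp1, fell with TGF-β1 and fell further with G-MDSC supernatant (edgeR adjusted p = 0.0328). Of 9 tested MSC markers 6 rose and 3 fell with TGF-β1. The 2 markers absent in the flow check of the MSCs (Kit and Pecam1) were not tested.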

Additional observations from a re-analysis of the deposited data

How the results depend on the processing

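Of 54 member results (9 genes in 6 comparisons), 20 were called and 17 of these kept the call in 9 other settings and without each of the 6 libraries of the groups compared in turn. The other 3 lost it in some: Smad1 and Skil with TGF-β1 against untreated MSCs, and Smad4 with G-MDSC supernatant against untreated MSCs, which also missed in limma (adjusted p = 0.0936 on log2(FPKM + 1)) and without an FPKM filter (0.0682). No called result changed sign. Smad1 with M-MDSC supernatant against untreated MSCs gained a call with median-ratio size factors (0.0480), DESeq2 (0.0346) and only these 2 groups fitted (0.0258). The members called were 5 to 7 with TGF-β1 against untreated MSCs without 1 library, and 6 in either supernatant group against untreated MSCs. In the comparisons without untreated MSCs the count was 0 in each setting and, in edgeR, without each library of the groups compared. By the fold rule of the study the counts were 1 with TGF-β1 against untreated MSCs, 2 in either supernatant group against untreated MSCs. The cause of these changes was not tested.

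The values that changed sign all came from results that were not called. Smad2 with M-MDSC supernatant against untreated MSCs, a log2 fold change of -0.0047, was 0.0059 with median-ratio size factors or DESeq2, 0.012 without an FPKM filter or with filterByExpr, and 0.00038 with 2 groups fitted. With 1 library left out, Smad2 against untreated MSCs ran from -0.0551 to 0.0442 with M-MDSC and from -0.135 to 0.435 with G-MDSC supernatant, and Ski from -0.0751 to 0.550 and from -0.149 to 0.502. For M-MDSC supernatant against TGF-β1, Smad1 ran from -0.122 to 0.0257, Smad4 from -0.0231 to 0.114, Smad5 from -0.136 to 0.104 and Skil from -0.222 to 0.370. For G-MDSC supernatant against TGF-β1, Smad1 ran from -0.0234 to 0.122, Smad2 from -0.606 to 0.0597, Smad3 from -0.0257 to 0.0896, Smad4 from -0.133 to 0.0044, Smad5 from -0.0275 to 0.214 and Skil from -0.244 to 0.348. Between the supernatants, Smad2 ran from -0.440 to 0.131, Smad6 from -0.0204 to 0.0657, Smad7 from -0.0451 to 0.0216, Ski from -0.265 to 0.388 and Skil from -0.0493 to 0.0928.

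The ratio of inhibitory to signal-carrying SMADs was 0.475, 0.830, 0.816 and 0.772 (untreated, TGF-β1, M-MDSC, G-MDSC) with Ski and Skil among the inhibitors, and 0.112, 0.152, 0.180 and 0.172 from counts scaled to depth but not to length.

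The deviations from group means gave no sign of a strong pairing by replicate number. Their mean correlation was -0.0047 over 18 pairs of the same number, from -0.174 to 0.0831. The mean of 0.0024 over 36 pairs of different numbers largely follows from it, since deviations within a group sum to 0. Whether libraries of the same number were prepared together cannot be told from these values. With the replicate number as a block the members called were 7 (TGF-β1), 6 (M-MDSC) and 7 (G-MDSC) against untreated MSCs and 0 in the 3 other comparisons, as without it, and Ski between the supernatants was -0.0094.

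Over all genes, the 574 calls for M-MDSC supernatant against TGF-β1 were 351 with 2 groups fitted and 355 without the second TGF-β1 library. The 15 between the supernatants were 121 with DESeq2, 39 with limma on log2(FPKM + 1), 41 with 2 groups fitted, 8 with the block, 9 without the first G-MDSC supernatant library and 47 without the third M-MDSC supernatant library. By the fold rule, the 810, 839 and 817 genes for TGF-β1, M-MDSC and G-MDSC supernatant against untreated MSCs were 2047, 2366 and 2340 without a filter, 1795, 2035 and 2011 with filterByExpr, and 464, 478 and 506 with limma on log2(FPKM + 1). The split for G-MDSC supernatant against TGF-β1, 372 higher and 296 lower, was 458 and 216 with limma on log2(FPKM + 1), 348 and 155 with 2 groups fitted and 527 and 211 without a filter. That for M-MDSC supernatant, 340 and 234, was 257 and 94 with 2 groups fitted, 446 and 154 without a filter and 254 and 101 without the second TGF-β1 library. The lowest count of a tested member was 483, and the spread between libraries was largest for Skil, Ski and Smad2. Whether depth or spread set which members were called was not tested. Smad9 did not pass the filter of the main test, and its result without that filter is not given here. Protein and phosphorylation were not analysed here.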
